A study of Homo sapiens with 6 samples.

Results

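Cell-cell junction genes and the regulators of epithelial identity were followed in 6 clonal lines of HEK293, an established cell line derived from human embryonic kidney. The 39 genes were chosen by symbol for their known roles, with earlier results of these data known, and each matched 1 of the 58395 gene rows in the deposited tables. They comprise 3 classical cadherins, 4 catenins, EPCAM, 6 claudins, 4 other tight junction membrane proteins, 3 tight junction scaffolds, 8 desmosomal genes, 6 regulators that favour epithelial identity and 4 repressors of epithelial genes. The control group was 3 lines overexpressing GST-3F (lines 2, 8 and 9). The other group was 3 lines overexpressing NOCT ∆(2-15)-3F (lines 4, 11 and 12), a tagged nocturnin without residues 2 to 15. All 6 lines carry a tagged transgene, and the promoter that drives it is not given in the sources used here. Each line is 1 clone with 1 library, so p-values measure the spread between clones.

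Libraries held 19729745 to 24422406 gene counts. The construct rows followed the labels: the GST construct had 46 to 88 counts among the GST lines and 0 or 1 among the NOCT lines, while the NOCT construct had 46 to 82 among the NOCT lines and 3 to 7 among the GST lines. Over all genes, edgeR's quasi-likelihood test called 10 of 17261 (0.0579%) at an adjusted p under 0.05. That number was 970 without NOCT line 12 and 0 to 13 with any other line left out, the 0 without GST line 9 (1488 at an unadjusted p under 0.05). In bulk RNA, fewer cells of a type and less RNA per cell cannot be told apart.

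Epithelial cells hold together through several kinds of junction. Adherens junctions join cadherins, which bind cadherins on the next cell, to actin through catenins. Tight junctions seal the space between cells with claudins and occludin-like proteins that rest on zonula occludens scaffolds, and desmosomes join desmosomal cadherins to intermediate filaments through plakoglobin, plakophilins and desmoplakin. GRHL, OVOL and ESRP proteins favour the epithelial state, the last by controlling splicing, whereas ZEB and SNAI proteins repress CDH1 and other epithelial genes. Loss of CDH1 with gain of CDH2 is the best known mark of the switch to a mesenchymal state.

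Promoter sequences are shown for 5 tight junction genes with an unadjusted p under 0.05, because ZEB and SNAI proteins bind the E-box CAGGTG and both kinds of gene are among the 39. Each is the 250 bases before a start site in RefSeq on GRCh38.p14, written 5′ to 3′ on the gene's strand, with CAGGTG or its reverse complement CACCTG in capitals. They are OCLN at chr5:69492297-69492546 (plus strand), MARVELD2 at chr5:69414866-69415115 (plus), CGN at chr1:151511137-151511386 (plus), CLDN1 at chr3:190322447-190322696 (minus) and CLDN7 at chr17:7262479-7262728 (minus).
OCLN: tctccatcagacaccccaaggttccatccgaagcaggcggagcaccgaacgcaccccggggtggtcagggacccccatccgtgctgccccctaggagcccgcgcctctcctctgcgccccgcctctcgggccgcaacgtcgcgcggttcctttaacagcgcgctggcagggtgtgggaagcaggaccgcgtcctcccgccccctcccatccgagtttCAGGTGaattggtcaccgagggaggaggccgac
MARVELD2: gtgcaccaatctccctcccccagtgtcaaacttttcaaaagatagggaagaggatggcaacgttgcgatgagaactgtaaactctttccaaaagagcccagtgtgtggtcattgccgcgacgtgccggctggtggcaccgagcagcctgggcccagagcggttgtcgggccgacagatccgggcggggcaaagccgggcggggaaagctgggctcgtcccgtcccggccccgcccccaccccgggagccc
CGN: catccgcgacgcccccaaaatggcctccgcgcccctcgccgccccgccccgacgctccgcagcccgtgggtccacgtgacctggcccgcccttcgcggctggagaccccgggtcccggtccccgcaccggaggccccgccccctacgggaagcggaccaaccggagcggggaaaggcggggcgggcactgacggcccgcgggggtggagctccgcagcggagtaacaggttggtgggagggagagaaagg
CLDN1: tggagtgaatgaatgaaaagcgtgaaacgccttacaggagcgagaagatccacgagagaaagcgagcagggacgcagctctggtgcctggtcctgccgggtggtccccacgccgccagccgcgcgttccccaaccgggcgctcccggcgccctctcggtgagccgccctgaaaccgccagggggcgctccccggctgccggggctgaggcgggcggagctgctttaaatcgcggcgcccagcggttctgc
CLDN7: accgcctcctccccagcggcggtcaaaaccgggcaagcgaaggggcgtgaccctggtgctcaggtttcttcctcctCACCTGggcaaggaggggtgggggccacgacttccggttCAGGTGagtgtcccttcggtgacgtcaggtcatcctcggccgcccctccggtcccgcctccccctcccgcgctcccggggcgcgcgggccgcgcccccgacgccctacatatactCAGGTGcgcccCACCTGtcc
The CLDN7 window held 4 copies of the E-box, the OCLN window held 1, and the other windows shown held 0. CLDN7 and OCLN each have another start site in the table, whose window held 0 copies for CLDN7 and 1 for OCLN, and the CLDN7 window shown was chosen after its copies were seen. RefSeq promoters matched 25 of the 39 genes with 44 start sites, of which 12 (27.3%) had the E-box on either strand. Genes without a match, whose promoters were not searched, include CDH1, CDH3, EPCAM, ESRP1, ESRP2 and F11R. F11R is also a tight junction gene with an unadjusted p under 0.05. Of 35116 promoters in all, 17.5% had it. Windows of 1 gene can overlap, and a match says only that the letters are there. The 8-letter grainyhead-like motif AACCGGTT was in 0 of the 44 windows and in 0.117% of all promoters.

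The catenins and most of the desmosome were well expressed in all 6 lines, while E-cadherin, P-cadherin, most claudins of the list and several epithelial regulators were low. Levels between genes are given as TPM, a level scaled for gene length and library size, as mean ± SD over the 6 lines. Desmoplakin (DSP), which anchors intermediate filaments at desmosomes, had the highest mean of the 39 genes at 126 ± 14.3 TPM. N-cadherin (CDH2) followed at 109 ± 21.1, with a spread that overlaps that of DSP, and was above DSP in GST line 9 and NOCT line 11. Alpha-catenin (CTNNA1, 84.3 ± 10.3 TPM), beta-catenin (CTNNB1, 76.1 ± 9.91) and PERP (73.6 ± 33.8), a tetraspan desmosomal protein, came next, with spreads that overlap. Their order differed by group: PERP averaged 49.0 TPM in the GST lines, below DSG2 at 55.5, and 98.2 in the NOCT lines, above CTNNA1 at 88.5. At the other end, GRHL2 had 1 count in NOCT line 4 and 0 in the other 5 lines, where a count of 0 allows up to 3 counts. PKP1, a plakophilin of stratified epithelia, had 1 count in GST line 2, 1 in NOCT line 4 and 0 elsewhere. OVOL1 (2 to 8 counts), CLDN6 (3 to 6), TJP3 (3 to 18), CLDN4 (4 to 20) and ELF3 (5 to 15) were also close to the lower limit. An epithelial identity of the lines is therefore not taken from the label: several of its regulators, claudins and plaque genes were near 0.

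**Figure D1:**
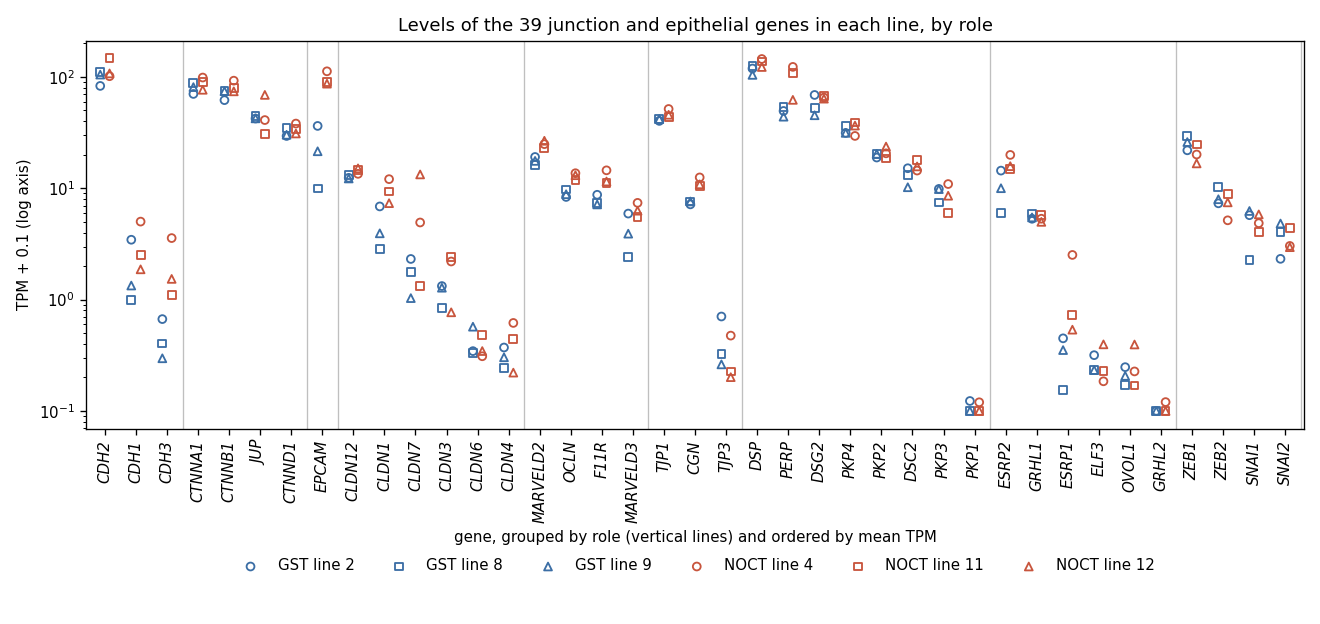
TPM + 0.1 on a log axis for each of the 39 genes, grouped by role, in each line (blue GST, orange NOCT). DSP and CDH2 average 126 and 109 TPM, whereas GRHL2 and PKP1 have at most 1 count in any line.

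Of the 39 genes, 32 had enough counts for the test, which needed 0.475 CPM (counts scaled by library size) in at least 3 lines. CLDN4, CLDN6, TJP3, PKP1, GRHL2, OVOL1 and ELF3 did not. CDH3, CLDN3 and ESRP1 reached that level in fewer than 3 GST lines. CPM values given for lines and groups are further scaled with the TMM method, which was applied after this minimum. With adjustment over all 17261 genes, 0 of the 32 passed an adjusted p of 0.05 in edgeR, beside 0.0579% of all genes tested. The smallest adjusted p in edgeR was 0.123, for EPCAM. At an unadjusted p under 0.05 there were 11 (13.9% of all genes tested): 10 higher in the NOCT lines (7.38%) and 1 lower (6.52%). Groups did not overlap for 10 of the 32 (20.0% of all genes tested), with 9 higher in every NOCT line (10.5%) and 1 lower in every NOCT line (9.54%). CDH3 and ESRP1 reached the count minimum only with NOCT lines, where they are high. Both are among the 9 and the 10 higher genes, so these counts depend in part on the filter, as do calls of CDH3 below. The 32 log2 fold changes had a median of 0.16 with 25 above 0, while all genes tested had a median of 0.00464 with 50.7% above 0.

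The calls depended on the tool. DESeq2 on the same genes called 5 of the 32, all higher in the NOCT lines (CDH3, EPCAM, F11R, CGN and PERP), beside 2.94% of all genes called and 1.57% called higher. The authors' deposited table has the same 5 genes under an adjusted p of 0.05, beside 2.09% of its gene rows and 1.09% in that direction. Without NOCT line 12, edgeR called CDH3, EPCAM and PERP, beside 5.42% of all genes and 3.15% called higher. Limma voom called 0 of the 32, with 11 at an unadjusted p under 0.05, beside 2476 of all 17261 genes.

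**Figure D2:**
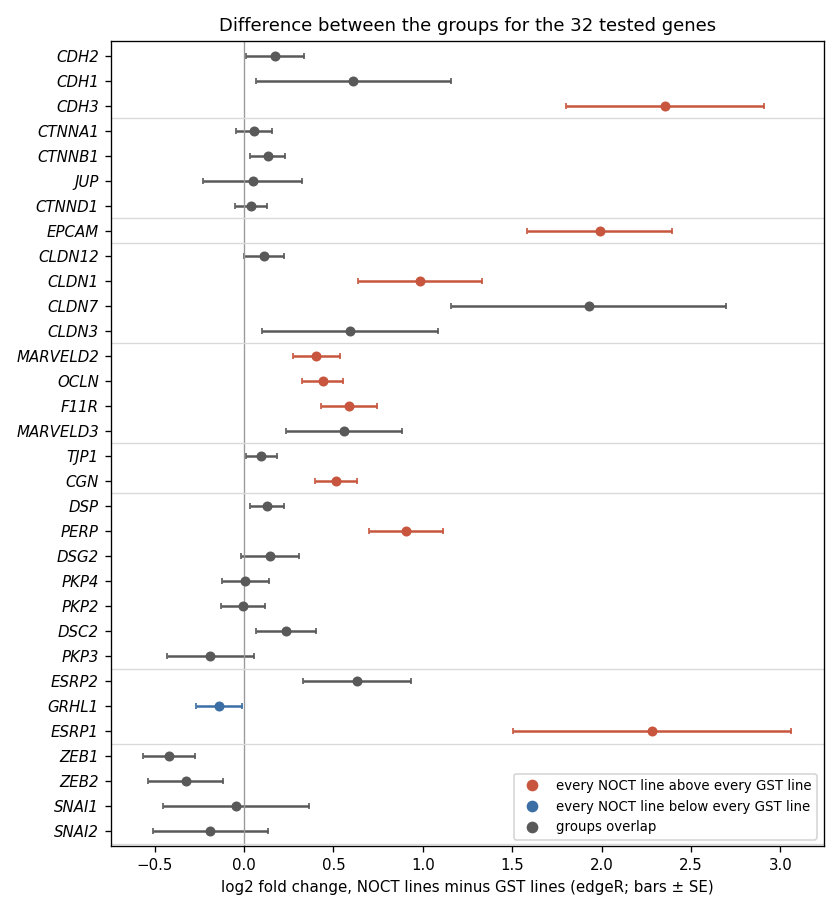
The edgeR log2 fold change of the NOCT lines over the GST lines (x axis, bars ± SE) for the 32 tested genes, grouped by role. Orange marks 9 genes that were higher in every NOCT line, blue marks GRHL1, which was lower in every NOCT line, and grey marks genes whose groups overlap.

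Among classical cadherins, CDH2 had 83.0, 111 and 105 TPM in GST lines 2, 8 and 9 and 102, 147 and 108 TPM in NOCT lines 4, 11 and 12. E-cadherin (CDH1), the cadherin of most epithelia, had 3.35, 0.897 and 1.24 TPM in the GST lines and 4.92, 2.43 and 1.77 in the NOCT lines, in the same order of lines, which is kept for all triplets that follow. CDH2 exceeded CDH1 in TPM within every line, from 20.6-fold in NOCT line 4 to 124-fold in GST line 8. Groups overlapped for CDH2 (0.17 ± 0.16 log2 units (SE), adjusted p 0.670 in edgeR) and for CDH1 (0.61 ± 0.54 log2 units (SE), adjusted p 0.652 in edgeR). GST line 2 had the second highest CDH1, and without it the difference was 1.43 (adjusted p 0.283 in edgeR). Without NOCT line 4, the highest, it was 0.12.

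P-cadherin (CDH3), found in basal layers of epithelia and in placenta, had the largest edgeR log2 fold change of the 32 with all lines, as counted. EPCAM was above it on log2(TPM + 1) (2.21 against 1.05) and log2(TPM + 0.1), and ESRP1 was above it without GST line 9. With the level of neighbouring genes removed, ESRP1 (2.25) and EPCAM (2.15) were above CDH3 (2.14). CDH3 met the count minimum in 2 GST lines and in all NOCT lines. Its counts were 25, 14 and 9 in the GST lines and 178, 47 and 63 in the NOCT lines, or 0.803 ± 0.458 against 4.08 ± 2.57 CPM (SD, n = 3 each). Every NOCT line was above every GST line, and NOCT line 4 stood well above the rest. EdgeR gave 2.35 ± 0.55 log2 units (SE) with an adjusted p of 0.165, and DESeq2 an adjusted p of 0.00268. In the authors' deposited table CDH3 has a shrunken log2 fold change of 1.04 and an adjusted p of 0.000988. CDH3 (ENSG00000062038) spans bases 68636189 to 68722616 of chromosome 16 on the plus strand of GRCh38. It ends 14.6 kb before CDH1 (ENSG00000039068, 68737225 to 68835548, same strand), and ESRP2 lies 398.1 kb away on its other side. Of the 50-base windows of CDH3 transcripts, 11.4% also occur in transcripts of other genes.

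Catenins, which link cadherins to actin, had small differences. CTNNA1 had 231, 269 and 257 CPM in the GST lines and 282, 268 and 239 in the NOCT lines, and CTNNB1 had 274, 305 and 319 and 356, 317 and 312 CPM. The groups overlapped for both and for p120-catenin (CTNND1), with log2 fold changes of 0.06, 0.13 and 0.04 and SEs of 0.10, 0.10 and 0.09. Plakoglobin (JUP), shared by adherens junctions and desmosomes, was even over the GST lines at 77.7, 75.4 and 75.3 CPM and uneven over the NOCT lines at 65.3, 50.7 and 120.3 CPM. NOCT line 12 was the highest and the other NOCT lines were below every GST line (0.05 ± 0.28 log2 units (SE), adjusted p 0.955 in edgeR). Without NOCT line 12 the value for JUP was -0.39 (adjusted p 0.107 in edgeR).

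EPCAM, an adhesion glycoprotein of simple epithelia that stabilises claudins, had the smallest p of the 32. It had 34.0, 8.53 and 19.4 CPM in the GST lines and 91.4, 76.2 and 77.4 CPM in the NOCT lines. The NOCT lines were close to each other and all above the GST lines, of which line 8 was lowest. Means were 20.6 ± 12.8 and 81.6 ± 8.45 CPM (SD, n = 3 each), or 1.99 ± 0.40 log2 units (SE), with an adjusted p of 0.123 in edgeR and 0.0142 in DESeq2. The authors' deposited table gives EPCAM a shrunken log2 fold change of 0.83 and an adjusted p of 0.0138. Over the 16 alternatives tried the value ranged from 1.61 to 2.55 and passed in 3: DESeq2, edgeR without NOCT line 12 (adjusted p 0.0299) and edgeR with every gene of at least 1 count kept. EPCAM (ENSG00000119888) spans 47345158 to 47387601 of chromosome 2 (GRCh38, plus strand).

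**Figure D3:**
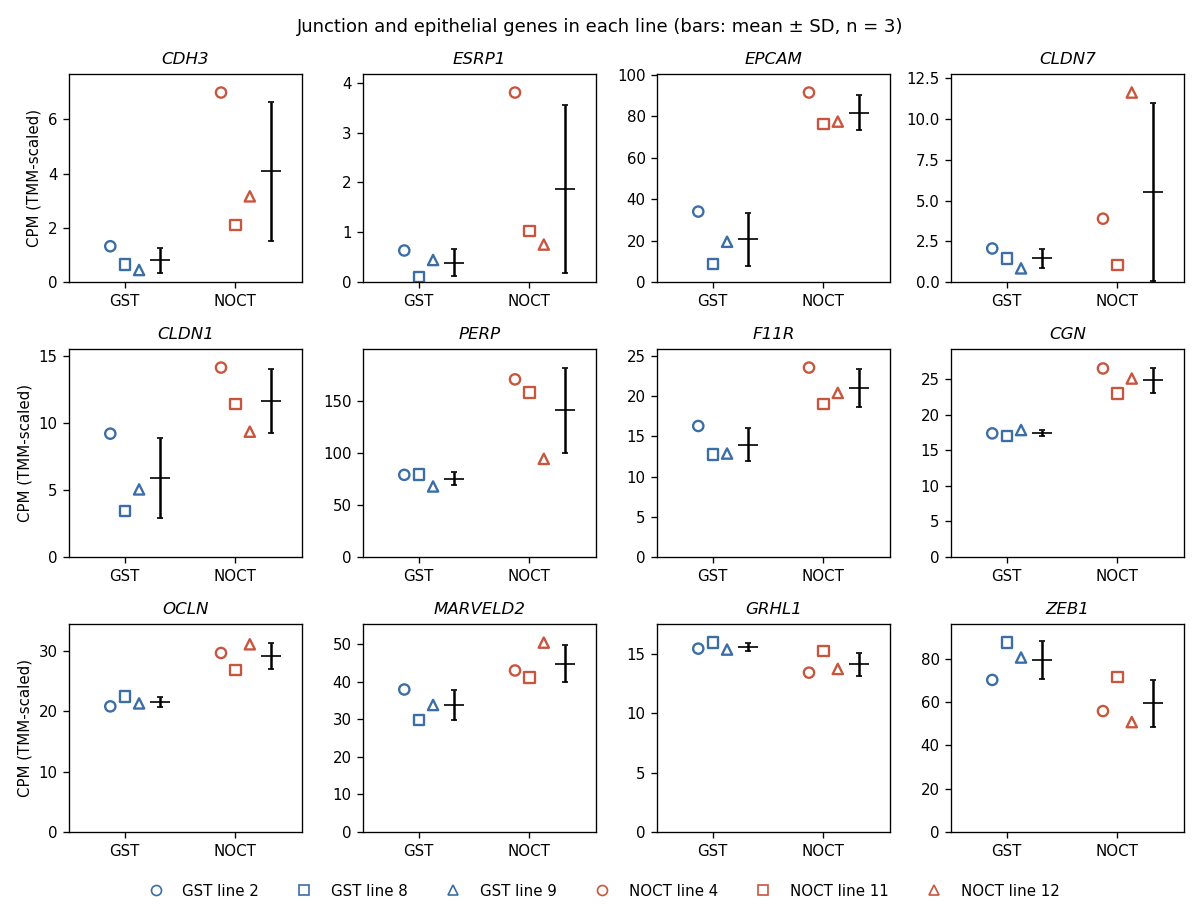
CPM in each line (points, shapes are lines, blue GST, orange NOCT) with mean ± SD (n = 3) for the 12 tested genes with an unadjusted p under 0.05 or groups that do not overlap, each panel starting at 0. EPCAM sits between 76.2 and 91.4 CPM in the NOCT lines, and in CLDN7, CDH3 and ESRP1 a single NOCT line is well above the others.

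Claudins form the strands of the tight junction, and different claudins make it tighter or leakier to ions. CLDN12 was the highest of this list (13.4 ± 1.15 TPM) and was even, with 30.9, 30.1 and 29.5 CPM in the GST lines and 29.1, 32.9 and 35.7 in the NOCT lines (0.11 ± 0.11 log2 units (SE), adjusted p 0.698 in edgeR). CLDN1, a sealing claudin, had 9.23, 3.43 and 5.06 CPM in the GST lines and 14.2, 11.4 and 9.37 CPM in the NOCT lines. The lowest NOCT line was just above the highest GST line (0.99 ± 0.35 log2 units (SE), adjusted p 0.269 in edgeR). CLDN7, which binds EPCAM, had 2.06, 1.44 and 0.835 CPM in the GST lines and 3.89, 1.03 and 11.6 CPM in the NOCT lines. NOCT line 12 was by far the highest, while NOCT line 11 lay within the GST range, so the groups overlapped (1.93 ± 0.77 log2 units (SE), adjusted p 0.320 in edgeR). CLDN3 had 6 to 22 counts per library and overlapping groups (0.59 ± 0.49 log2 units (SE), adjusted p 0.628 in edgeR). Of the 50-base windows of CLDN7 transcripts, 8.25% also occur in those of AC003688.1, and the share was 12.6% for CLDN12, so counts there are uncertain.

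Tight junctions also hold tetraspan proteins with a MARVEL domain. Occludin (OCLN) had 20.8, 22.4 and 21.3 CPM in the GST lines and 29.6, 26.7 and 31.0 CPM in the NOCT lines. Tricellulin (MARVELD2), which seals the corners where 3 cells meet, had 37.96, 29.8 and 33.8 CPM in the GST lines and 43.0, 41.1 and 50.4 CPM in the NOCT lines. Every NOCT line was above every GST line for OCLN (0.44 ± 0.11 log2 units (SE), adjusted p 0.193 in edgeR) and for MARVELD2 (0.41 ± 0.13 log2 units (SE), adjusted p 0.240 in edgeR). OCLN and MARVELD2 are 48.0 kb apart on chromosome 5. MARVELD3, on chromosome 16, had 14.0, 5.10 and 8.84 CPM in the GST lines and 15.2, 11.8 and 14.1 in the NOCT lines. GST line 2 lay among the NOCT lines (0.56 ± 0.32 log2 units (SE), adjusted p 0.484 in edgeR), and 17.1% of its transcript windows occur in other genes.

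F11R, the junctional adhesion molecule JAM-A, which helps polarity complexes assemble at the junction, had 16.3, 12.8 and 12.9 CPM in the GST lines. In the NOCT lines it had 23.6, 19.0 and 20.4 CPM, above every GST line. The difference was 0.59 ± 0.16 log2 units (SE), with an adjusted p of 0.194 in edgeR and 0.0389 in DESeq2. The authors' deposited table gives F11R an adjusted p of 0.0445. Of its transcript windows, 35.9% are shared with other genes, first among them the overlapping AL591806.3 on the same strand, so its counts are uncertain. For OCLN the share was 8.80%, with its pseudogene OCLNP1 among the other genes.

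Of the scaffolds beneath the strands, ZO-1 (TJP1), which ties claudins and occludin to actin, had 168, 162 and 169 CPM in the GST lines and 187, 166 and 182 in the NOCT lines. Its groups overlapped (0.10 ± 0.09 log2 units (SE), adjusted p 0.652 in edgeR). Cingulin (CGN), which binds ZO-1, had 17.4, 17.1 and 17.9 CPM in the GST lines and 26.5, 23.0 and 25.1 CPM in the NOCT lines. The groups of CGN did not overlap, and both were narrow, with SDs of 0.405 and 1.77 CPM (n = 3 each). The difference was 0.51 ± 0.12 log2 units (SE), with an adjusted p of 0.159 in edgeR and 0.0193 in DESeq2. The authors' deposited table gives CGN an adjusted p of 0.0338. TJP3 (ZO-3) had 18, 7 and 5 counts in the GST lines and 13, 4 and 3 in the NOCT lines, too few for the test.

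The tested desmosomal genes other than PERP had overlapping groups. DSP had 447, 436 and 379 CPM in the GST lines and 472, 468 and 438 in the NOCT lines (0.13 ± 0.10 log2 units (SE), adjusted p 0.591 in edgeR). Desmoglein DSG2 had 159, 112 and 101 CPM in the GST lines, line 2 being the highest of all 6, and 130.4, 141 and 139 in the NOCT lines (0.15 ± 0.16 log2 units (SE), adjusted p 0.723 in edgeR). Desmocollin DSC2 and plakophilins PKP2, PKP3 and PKP4 were no different in this respect, with log2 fold changes of 0.24, -0.01, -0.19 and 0.01 in edgeR.

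PERP, also a target of p53, had 78.9, 79.2 and 67.7 CPM in the GST lines and 171, 158 and 94.2 CPM in the NOCT lines. The groups did not overlap, yet NOCT line 12 lay nearer to the GST lines than to the other NOCT lines. The difference was 0.91 ± 0.21 log2 units (SE), with an adjusted p of 0.159 in edgeR and 0.00266 in DESeq2. The authors' deposited table gives PERP an adjusted p of 0.00217. Without NOCT line 12 it was 1.12 log2 units and passed in edgeR (adjusted p 0.00159).

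Among regulators that favour epithelial identity, the splicing regulator ESRP2 was at 13.4 ± 4.85 TPM and its paralog ESRP1 at 0.690 ± 0.868 TPM. ESRP1 had 12, 2 and 9 counts in the GST lines and 97, 23 and 15 counts in the NOCT lines. Its groups were parted by a small margin, 0.633 CPM in GST line 2 and 0.752 in NOCT line 12, and NOCT line 4 was far above the rest (2.28 ± 0.78 log2 units (SE), adjusted p 0.260 in edgeR). ESRP2 had 29.6, 11.3 and 19.8 CPM in the GST lines and 35.6, 27.7 and 30.8 CPM in the NOCT lines, with GST line 2 among the NOCT lines (0.63 ± 0.30 log2 units (SE), adjusted p 0.400 in edgeR). GRHL1, a grainyhead-like transcription factor, had 15.4, 16.0 and 15.4 CPM in the GST lines and 13.4, 15.2 and 13.7 in the NOCT lines. Every NOCT line was lower by a small margin (-0.14 ± 0.13 log2 units (SE), adjusted p 0.655 in edgeR), and the value was 0.00717 with spike-in totals as library sizes.

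Repressors of epithelial genes had log2 fold changes below 0, but for SNAI1 (-0.05 ± 0.41, SE) the sign turned in 8 of 16 alternatives, scaling by spike-in or library totals among them. ZEB1 was the highest of the 4 at 23.1 ± 4.55 TPM. It had 70.3, 87.5 and 80.6 CPM in the GST lines and 55.9, 71.7 and 50.8 CPM in the NOCT lines. NOCT line 11 was above GST line 2, so the groups overlapped (-0.42 ± 0.15 log2 units (SE), adjusted p 0.268 in edgeR), and the value ran from -0.58 to -0.26 over the 16 alternatives. ZEB2 had 67.4, 87.1 and 70.9 CPM in the GST lines and 40.9, 74.0 and 65.2 CPM in the NOCT lines, with NOCT line 4 lowest (-0.33 ± 0.21 log2 units (SE), adjusted p 0.530 in edgeR). SNAI1 had 3.53, 1.25 and 3.73 CPM in the GST lines and 2.59, 2.24 and 3.41 in the NOCT lines, and SNAI2 ranged from 2.06 to 4.22 CPM over all lines (-0.19 ± 0.32 log2 units (SE), adjusted p 0.826 in edgeR).

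The GST lines differed among themselves in an order that several of the 39 genes shared. CDH1, EPCAM, CLDN1, MARVELD3, ESRP1 and ESRP2 were lowest in GST line 8, intermediate in GST line 9 and highest in GST line 2, with at least a 2-fold range. These were 6 of the 31 tested genes averaging at least 1 CPM, beside 3.69% of all such genes. A 2-fold range in any order was found in 10 of the 31, beside 7.31%. The order alone, at any range, was found in 10 of the 32 tested genes, beside 22.5% of all genes tested. This order was noticed in the values and has no test. Without GST line 2, 17 of 33 tested genes had groups without overlap, beside 32.8% of all genes in that fit, and 15 of them were higher in the NOCT lines, beside 16.6%. NOCT line 4 had the highest level for 15 of the 31 genes, beside 22.1% of all genes, and GST line 8 the lowest for 11, beside 15.3%.

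**Figure D4:**
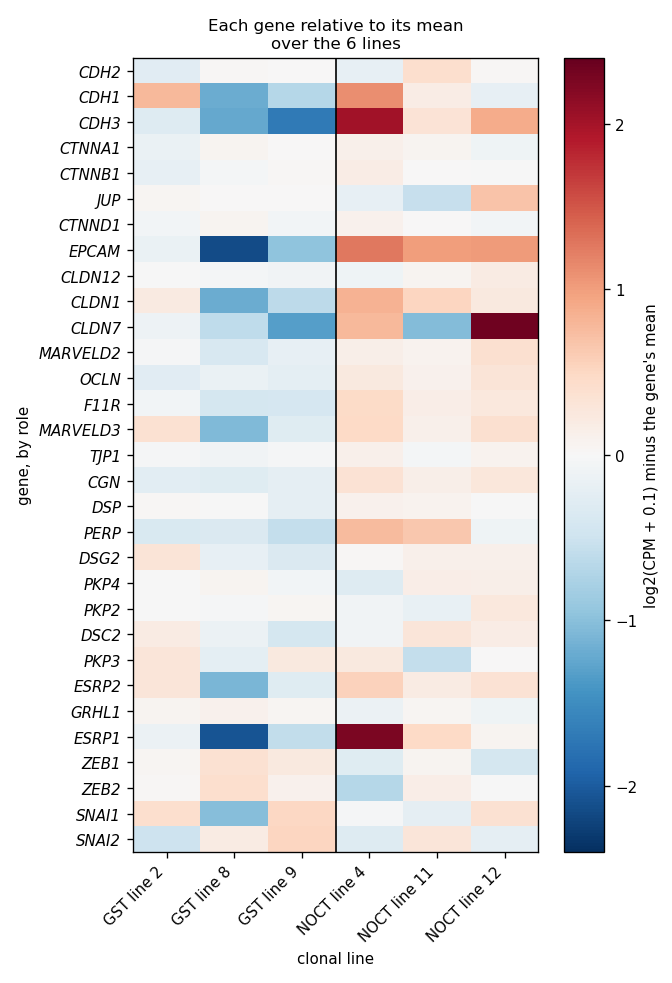
Colour gives log2(CPM + 0.1) minus the gene's mean over the 6 lines, for 31 genes averaging at least 1 CPM (rows, by role) in each line (columns, GST lines left). EPCAM is at -2.14 in GST line 8 and at 1.26 in NOCT line 4, and CDH1, CLDN1, MARVELD3, ESRP1 and ESRP2 are also lowest in GST line 8.

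Each gene was also set beside the median deviation of up to 50 expressed genes on each side. On chromosome 16, ESRP2, CDH3, CDH1 and MARVELD3 had neighbours at -0.29 to -0.30 log2 units in GST line 8, -0.12 to -0.13 in GST line 9, and 0.05 to 0.08 in GST line 2, while NOCT line 4 was highest at 0.17 to 0.20. These genes lie close together, so their neighbours are in part the same genes. CDH1 itself was at -1.19, -0.68 and 0.77 in GST lines 8, 9 and 2, the same order at a larger size. ESRP2 and MARVELD3 had that order too, but CDH3 did not, at -1.23, -1.70 and -0.31. In GST line 8, EPCAM had neighbours at 0.10 and CLDN1 at 0.01, where the genes themselves were at -2.14 and -1.18. With the level of neighbours removed, the difference between groups went from 0.61 to 0.44 for CDH1, from 0.63 to 0.43 for ESRP2 and from 0.56 to 0.35 for MARVELD3. For CDH3 it went from 2.35 to 2.14 (adjusted p 0.140 in edgeR). For EPCAM it went from 1.99 to 2.15 (adjusted p 0.0975 in edgeR) and for CGN from 0.51 to 0.46 (adjusted p 0.118 in edgeR). On chromosome 2, EPCAM, ZEB2, PKP4 and GRHL1 had neighbours at -0.34 to -0.38 in NOCT line 4, where ZEB2 itself was at -0.69. With neighbours removed, the difference for ZEB2 went from -0.33 to -0.19 (adjusted p 0.532 in edgeR) and for PKP4 from 0.01 to 0.15. Neighbours of GRHL1 differed by -0.40 between the groups, and its own value turned from -0.14 to 0.26 (adjusted p 0.400 in edgeR). In that fit 0 of the 32 passed in edgeR, with 13 at an unadjusted p under 0.05, beside 2511 of all 17261 genes.

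**Figure D5:**
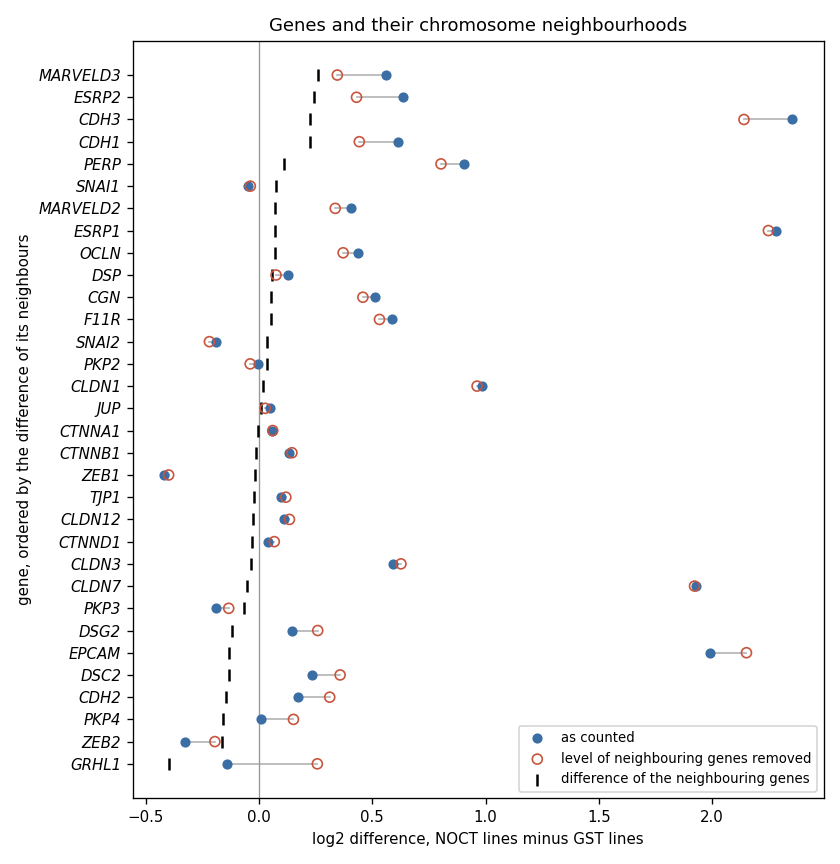
The log2 difference between NOCT and GST lines (x axis) for each tested gene as counted (filled) and with the level of neighbouring genes removed (open), beside the difference of the neighbours (black ticks), ordered by the latter. MARVELD3, ESRP2, CDH3 and CDH1 have neighbours at 0.22 to 0.26, and GRHL1 has neighbours at -0.40.

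Other junction genes were taken from lists chosen by name. Of 24 other adherens junction genes, 16 were tested, with 0 passing in edgeR and 1 in DESeq2, beside 0.0579% and 2.94% of all genes. At an unadjusted p under 0.05 in edgeR, 1 was higher and 2 were lower, beside 7.38% and 6.52% of all genes tested, shares that hold for the lists that follow too. The higher one was cadherin CDH11, with 31.8, 33.9 and 34.4 CPM in the GST lines and 56.6, 55.4 and 45.4 in the NOCT lines (0.65 ± 0.12 log2 units (SE), adjusted p 0.0962 in edgeR, 0.000782 in DESeq2). The lower ones were NECTIN3 (-0.33) and LIMD1 (-0.33). Of 37 other tight junction and polarity genes, 24 were tested and 0 passed in edgeR or DESeq2, with 2 higher and 2 lower at an unadjusted p under 0.05. Paracingulin (CGNL1), the paralog of CGN, was lower in every NOCT line, with 16.0, 14.2 and 14.3 CPM in the GST lines and 9.66, 11.0 and 11.0 in the NOCT lines (-0.49 ± 0.14 log2 units (SE), adjusted p 0.210 in edgeR). ILDR2 had a log2 fold change of 0.64 and PARD6G of -0.59. Of 8 other desmosomal genes, DSC3 (0.04) and periplakin (PPL) were tested, and PPL had 4.48, 3.62 and 3.39 CPM in the GST lines and 23.9, 17.4 and 6.22 in the NOCT lines (2.05 ± 0.44 log2 units (SE), adjusted p 0.141 in edgeR, 8.8e-05 in DESeq2).

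A list of 34 other epithelial genes had 20 tested, of which KRT19, a keratin of simple epithelia, passed in edgeR (3.61 log2 units, adjusted p 0.00465). At an unadjusted p under 0.05, 12 of the 20 were higher (7.38% of all genes tested) and 0 lower (6.52%), and the median log2 fold change was 1.07. DESeq2 called 7 of the 20, beside 2.94% of all genes. KRT17, with 3, 5 and 5 counts in the GST lines and 2808, 896 and 26 in the NOCT lines, is among the 12 and the 7. FOXA2, with 8 counts in GST line 8, is among the 12. Both reached the count minimum only with NOCT lines, where they are high. These counts and the median therefore depend in part on the filter. LAMB3, a laminin chain of epithelial basement membrane, was among the 12 (3.38 ± 0.64 log2 units (SE), adjusted p 0.113 in edgeR). The list was drawn up with KRT19's result known.

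Markers of mesenchymal and neuronal identity were counted in the same way. Of 21 mesenchymal genes, 13 were tested, with 0 passing in edgeR and 2 in DESeq2 (TAGLN and MMP2, both higher). DESeq2 called 2.94% of all genes, and 1.57% as higher. At an unadjusted p under 0.05 in edgeR, 4 were higher and 1 lower (7.38% and 6.52% of all genes tested), among them TAGLN (2.16), MMP2 (2.26) and TCF3 (-0.32). FOXC2, also among the 4, had 16, 9 and 11 counts in the GST lines and 101, 38 and 7 in the NOCT lines. It reached the count minimum only with NOCT lines 4 and 11, where it is high, so the 4 depend in part on the filter. The summed TPM of the 21 mesenchymal genes was 518 to 726 in the GST lines and 585 to 1229 in the NOCT lines, of which line 12 was lowest. VIM and FN1 made up most of that sum in every line. VIM had 353, 534 and 491 TPM in the GST lines and 856, 806 and 428 in the NOCT lines. FN1 had 67.7, 88.5 and 74.2 TPM in the GST lines and 231, 313 and 52.4 in the NOCT lines. Groups overlapped for both, and COL1A2 had 0 counts in all lines. Of 16 neuronal genes, 11 were tested, with 0 passing in edgeR and 3 in DESeq2 (CHGB, MAP2 and INA, all higher), beside the same 2.94% and 1.57%. At an unadjusted p under 0.05 in edgeR, 4 were higher and 0 lower, among them CHGB (1.73), MAP2 (0.97) and INA (0.95). Their summed TPM was 71.7 to 96.7 in the GST lines and 88.2 to 115 in the NOCT lines. A set of 7 epithelial markers (CDH1, EPCAM, KRT8, KRT18, KRT19, ESRP1 and GRHL2) summed to 119.8 to 139 TPM in the GST lines and 337 to 510.3 TPM in the NOCT lines. This set was chosen with earlier results known, so its difference is not a separate result. KRT19 alone had 6.82 to 12.2 TPM in the GST lines and 114 to 146 in the NOCT lines. EPCAM had 9.87 to 36.2 and 87.0 to 112 TPM, while CDH1, ESRP1 and GRHL2 each had at most 4.92 TPM in any line. The part of the mesenchymal and neuronal genes in the differences of the junction genes was not tested.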

How the data were processed

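Total RNA of 6 clonal lines was sequenced after ribosomal depletion in strand-specific libraries with spike-in RNA, per the labels' protocols. The authors deposited counts, whole reads per gene, for each line; HTSeq 0.6.1p1, STAR 2.5.2b and GRCh38 are named in the submitters' processing notes, and the annotation release is not given in the sources used here. The 5 rows that name no gene (42.9% to 47.1% of reads) and 92 spike-in rows stayed out of library sizes and tests. Deposited TPM values (49 rows repeated) served for levels between genes and for 2 alternatives. The authors' deposited DESeq2 comparison gives a mean normalised signal, shrunken log2 fold changes, a test score and p-values, and its direction was read from the construct rows.

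Counts, 19729745 to 24422406 per line, were fitted with edgeR 4.0.16 (R 4.3.3, filterByExpr, TMM, quasi-likelihood, Benjamini-Hochberg adjustment over 17261 genes). Alternatives used DESeq2 1.42.0, limma 3.58.1 (voom, log2(TPM + 1) and log2(TPM + 0.1)), other scalings and filters, each line left out, and an offset for up to 50 neighbouring genes on each side. Positions are from GENCODE on GRCh38 and promoters from RefSeq. Genes were described line by line where groups did not overlap, the unadjusted p was under 0.05, the TPM was among the 3 highest of a role, or CPM ranged at least 4-fold at a mean of at least 1. The genes, lists and rules were chosen with earlier results of these data known. With 3 lines against 3, an exact permutation test cannot go below 0.1, so none is given.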

Additional observations from a re-analysis of the deposited data

How the results depend on the processing

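No paired analysis was possible because the groups share no replicate numbers. Of the 39 genes, 0 were called in edgeR with other scalings, with a mean of at least 1 CPM or with neighbours removed, and 0 in limma. In voom, 11 were at an unadjusted p under 0.05, beside 2476 of all 17261 genes. DESeq2 called 5, and edgeR called 6 with every gene of at least 1 count kept (CDH3, EPCAM, CLDN1, CLDN7, PERP and ESRP1, beside 2.57% of all genes). Leaving out a line gave 0 to 3 calls, the 3 without NOCT line 12. The number without overlap was 10, and 11 to 17 with a line left out: 17 without GST line 2 (32.8% of all genes in that fit) and 16 without NOCT line 11 (27.4%), beside 20.0% with all lines. Without NOCT line 12 the share of all genes was largest, at 41.6% (21.5% higher and 20.1% lower). In that fit, of 34 tested members, 12 were higher and 3 lower in every NOCT line. The median log2 fold change was 0.16, and 0.14 to 0.36 with a line left out, the highest without GST line 2. It was 0.31 on spike-in totals, which moved the median of all genes to 0.15, 0.25 on log2(TPM + 1), 0.25 on log2(TPM + 0.1) and 0.29 with neighbours removed.

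Values near 0 changed sign. SNAI1 was at 0.0051 with library totals, 0.097 with spike-in totals, 0.093 in voom, 0.12 on log2(TPM + 1), 0.17 on log2(TPM + 0.1), and -0.41 to 0.20 with a line left out. GRHL1 was at 0.0072 with spike-in totals and 0.26 with neighbours removed. JUP was at -0.058 in voom and -0.39 to 0.28 with a line left out, CTNNA1 at -0.0045 without GST line 2 and CDH2 at -0.014 without NOCT line 11. The cause was not tested. Few reads limit CLDN3, CDH3 and ESRP1.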
